A study of Mus musculus and Ochotona curzoniae and Rattus norvegicus with 18 samples.

Results

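The genes whose symbols begin with SRSF or HNRNP were compared between cultured fibroblasts of the Tibetan pika and of the mouse. A gene was taken as a member if its symbol began with SRSF or HNRNP, stood once in the pika tables and stood once among the mouse symbols written in capitals. This gave 31 members of 14418 genes joined between the species, 11 SRSF genes and 20 HNRNP genes. Each species had 3 RNA-seq libraries. The mouse libraries carry the strain C57BL/6J, no strain is given for the pika, and the tissue label is epidermis in both. All 6 cultures were grown in DMEM with serum and antibiotics at 37 ℃ and 5% CO2 and lysed at 90% confluency, with no treatment or genetic change listed. Age, sex and the number of animals are not given. Nothing states whether the 3 libraries stem from different animals or dishes. The p-values therefore reflect only how far these libraries scatter, and that scatter could be technical. The series asked about core clock mRNA levels across species and about Epas1 binding. Its rat (SD) and rabbit libraries and its 6 ChIP samples were not analysed here.

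SRSF genes encode SR proteins, which bind exonic enhancers through RNA recognition motifs and recruit the splicing machinery through a tail rich in arginine and serine. HNRNP genes encode heterogeneous nuclear ribonucleoproteins, abundant RNA-binding proteins that coat nascent transcripts and often act against SR proteins at the same exons. Many members regulate their own mRNA through alternative exons that lead to nonsense-mediated decay, and several shuttle to the cytoplasm, where they affect mRNA stability and translation. In the circadian field, HNRNPD (also called AUF1) is known for binding Cry1 mRNA and promoting its decay.

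Values are given as rescaled FPKM, that is, the deposited FPKM (reads relative to gene length and library total) multiplied so that the joined genes of each library sum to 1000000. Library totals worked out from the FPKM steps were 7703576 to 8481030 reads in pika and 3663102 to 5758950 in mouse. The joined genes held 87.1% to 87.2% of the pika FPKM but 37.0% to 38.3% of the mouse FPKM, so the multiplier was 2.16 to 2.17 in pika and 5.25 to 5.37 in mouse. Species, genome and annotation cannot be told apart in any comparison here. Against the fibroblast label, COL1A1 was at 4638 to 4871 in pika and 4677 to 4896 in mouse, and VIM at 4286 to 4408 and 5161 to 5437. The 12 measured fibroblast markers summed to 13349 to 13797 in pika and 16246 to 16721 in mouse, with 2 called higher and 5 lower in pika. COL3A1 (21.3 to 24.2 against 938 to 971) and PDGFRA (3.10 to 3.77 against 61.1 to 69.5) were far lower in pika. The 2 higher markers were FAP (40.6 to 42.4 against 0.511 to 1.81) and DCN (259 to 284 against 105 to 131). The keratinocyte genes KRT5 and KRT14, which define the epidermal cell type, were at 0 in every pika library and at most 0.661 in a mouse library. Summed over their lists, 13 keratinocyte markers gave 91.2 to 103 in pika, mostly PERP at 62.1 to 76.4, and 64.9 to 71.5 in mouse, mostly DSP at 42.7 to 46.9, and 6 melanocyte markers 68.1 to 78.5 and 54.8 to 58.3. The 7 endothelial markers summed to 0.707 to 1.60 in pika and 33.5 to 39.5 in mouse, where TEK alone was at 27.3 to 35.2. CDH5, which defines the type, was at 0 in pika and 0.689 to 1.84 in mouse. The 6 leukocyte markers summed to 2.94 to 4.73 and 22.7 to 37.2, with PTPRC at 0 in pika. Whether these marker levels have a part in the differences below was not tested. In bulk RNA, fewer cells of a type and less RNA per cell cannot be told apart.

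Most SRSF and HNRNP genes were higher in pika than in mouse fibroblasts. Of the 30 members tested, 18 were called higher in pika, 1 was called lower and 11 were not called. A call required an adjusted p under 0.05 by limma-trend (Benjamini-Hochberg over all tested genes) and an absolute log2 fold change of at least 1, pika over mouse and taken on log2(value + 1). Among all 10348 tested genes 52.2% were called, 28.7% higher and 23.5% lower, so that 60.0% of members called higher stands against a background of 28.7%. The share was the same in both families, with 6 of 10 SRSF genes higher and none lower, and 12 of 20 HNRNP genes higher and 1 lower. The median log2 fold change was 1.18 for SRSF and 1.26 for HNRNP genes, against 0.21 over all tested genes. Summed over its members, the HNRNP family was at 9824 to 9964 in pika and 4345 to 4594 in mouse, and the SRSF family at 2377 to 2441 and 1330 to 1412. No mouse library reached a pika library for either sum.

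Every pika library lay above every mouse library for 27 of 31 members, where this held for 49.6% of tested genes. The order was the opposite for HNRNPA0, SRSF5 and HNRNPM, as for 39.4% of tested genes. All 30 tested members had an adjusted p under 0.05, but so did 88.6% of tested genes, and 11 members stayed inside the fold minimum. SRSF12, a splicing repressor of the SR family, was the member left untested, at 1.05, 1.38 and 1.51 in the pika libraries and 1.48, 0 and 1.05 in the mouse libraries. Its levels rested on 15 reads in pika and 8 in mouse and overlapped.

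**Figure D1:**
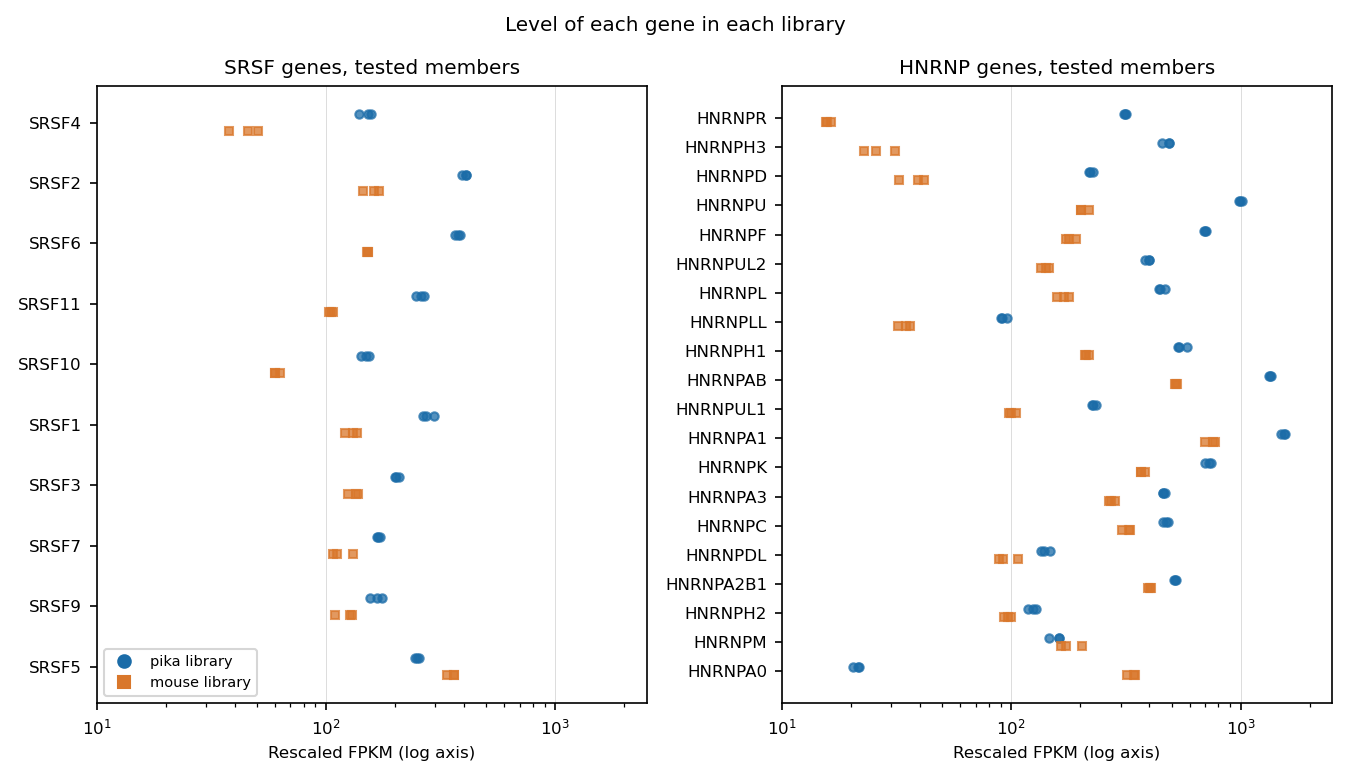
Rescaled FPKM (log axis) of each tested member in each of the 3 pika libraries (circles) and 3 mouse libraries (squares), sorted by fold change. The libraries of a species lie close together, and HNRNPA0, at 20.3 to 21.6 in pika and 319.5 to 346 in mouse, runs against most other members.

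HNRNPA0 showed the largest fall of any member. This gene, whose mRNA is encoded by 1 exon and whose protein binds AU-rich elements of inflammatory mRNAs, lies in mouse at chr13:58125879-58128556 (GRCm38.p6). It was at 20.3, 21.6 and 21.5 in the pika libraries and 319.5, 344 and 346 in the mouse libraries. All pika libraries were far below all mouse libraries. The mean was 15.9-fold lower in pika, a log2 fold change of -3.93 (SE 0.05, limma-trend adjusted p = 2.14e-11), with 345 reads behind the pika value and 2393 behind the mouse value. The mouse model had 2678 bases, equal to the annotated span, and the pika model 1449. HNRNPA0 was the member called lower under all 5 settings of scale and length (the shared-gene scale, no rescaling, median of ratios, TMM and no division by gene length), as were 8.53% of tested genes. The 250 bases before its annotated start, chr13:58128557-58128806 on the minus strand, are shown because no other member differed in this direction by as much. Capitals mark matches to the GC box GGGCGG, bound by Sp1-type factors, and to the CCAAT box, bound by NF-Y, on either strand, so that ATTGG is a CCAAT match on the opposite strand.
HNRNPA0: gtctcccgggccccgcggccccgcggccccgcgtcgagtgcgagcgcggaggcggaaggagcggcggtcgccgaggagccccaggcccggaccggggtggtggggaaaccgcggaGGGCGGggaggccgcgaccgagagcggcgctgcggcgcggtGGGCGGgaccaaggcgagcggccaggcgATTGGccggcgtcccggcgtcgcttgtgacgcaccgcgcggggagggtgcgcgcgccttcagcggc
The window was 81.2% G or C and held 2 GC boxes, beginning 135 and 94 bases before the start, and 1 CCAAT box, 66 bases before it.

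The other A-type members did not share that pattern. HNRNPA1, the core A-type protein that binds UAG-containing silencers, was at 1547, 1492 and 1554 in the pika libraries and 695, 760.1 and 769.9 in the mouse libraries. It was the most abundant member in both species by rescaled FPKM, and the libraries did not overlap. Its log2 fold change of 1.05 (SE 0.04) passed the minimum narrowly, and the call was lost with median-of-ratios scaling (0.87), TMM scaling (0.93) or without mouse replicate 1 (0.9998, just under the minimum). HNRNPA2B1, known for sorting miRNAs into exosomes, was at 515, 514 and 521 in the pika libraries and 394, 402 and 407 in the mouse libraries. Its libraries did not overlap, but its log2 fold change of 0.37 was small. HNRNPA3 lay between them, with a log2 fold change of 0.75. Processed copies of HNRNPA1 could take or lend reads. The mouse table lists Hnrnpa1l2-ps2 at 2.16 to 3.28 deposited FPKM, against 129.6 to 147 for Hnrnpa1.

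In the A/B and D group, HNRNPD rose most. HNRNPD, the AU-rich element binding protein AUF1, lies in mouse at chr5:99955935-99979130. It was at 228, 219.9 and 219 in the pika libraries and 32.3, 39.2 and 41.8 in the mouse libraries. Every pika library was several times above every mouse library. The log2 fold change was 2.53 (SE 0.09, limma-trend adjusted p = 3.85e-09), on 4397 pika and 732 mouse reads, and 1.52 without division by gene length. Its neighbour and paralog HNRNPDL, at chr5:100033577-100039936, was at 134 to 148 and 88.0 to 107, a log2 fold change of 0.55 that was not called. HNRNPAB, a related protein with roles in mRNA transport, was the second most abundant member in both species by rescaled FPKM. It was at 1323, 1361 and 1336 in the pika libraries and 519.6, 525 and 528 in the mouse libraries. That difference, 1.35 on the log2 scale, was 0.35 without division by gene length, where the recovered pika model had 674 bases and the mouse model 2782. That lower value is uncertain, since reads and length recovered for so short a model may both be too small by a shared whole factor.

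HNRNPD acts on clock mRNAs, so its targets and related clock genes were read from the same fit. CRY1, the repressor whose mRNA HNRNPD is known to bind, was at 33.8, 33.1 and 36.5 in pika and at 11.6 ± 0.549 in mouse (SD, n = 3). Its log2 fold change was 1.50. Both HNRNPD and CRY1 were thus higher in pika. NR1D1, a nuclear receptor whose mRNA hnRNPs are known to bind, was lower (log2 fold change -2.77), at 13.8 ± 1.25 in pika and 99.3 ± 4.29 in mouse. PER2, a repressor, was also lower (-2.70), at 0.179 ± 0.116 and 6.71 ± 1.08. ARNTL (0.79), PER1 (-0.26) and CLOCK (-0.12) were not called, and PER3 was not among the joined genes. The clock genes thus held 1 higher, 2 lower and 3 uncalled members, with a median of -0.19, where 28.7% of all tested genes were higher and 23.5% lower. Without gene length CLOCK was called lower (-1.33), giving 3 lower, and PER1 turned to 0.30. Without rescaling CLOCK (1.05) and ARNTL (1.82) were called higher.

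The E-box CACGTG is the element that CLOCK and ARNTL bind. Among the 29 members with a RefSeq promoter entry (HNRNPLL and HNRNPUL2 had none), 3 held it in the 250 bases before an annotated start, 10.34% against 10.19% of tested genes. These are given with 10 bases on each side on the gene's strand (GRCm38.p6), the E-box in capitals, from chr2:75659231-75659256 (plus) for HNRNPA3, chr5:99978955-99978980 (minus) for HNRNPD and chr6:117907715-117907740 (plus) for HNRNPF.
HNRNPA3: gatagcacatCACGTGgtgactggcc
HNRNPD: gctccggagcCACGTGaccgggacgc
HNRNPF: agcgggcgctCACGTGgcccgaggcg
The matches began 18, 32 and 79 bases before the respective start. HNRNPD and HNRNPF were called higher in pika, and HNRNPA3 was not. The shorter core ACGTG of the hypoxia response element, the element bound by HIF factors such as Epas1, was found in 9 members, 31.03% against 25.83% of tested genes, and every E-box also contains it. These are letters in mouse sequence and show no binding.

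The F/H group held HNRNPH3, with the second largest rise by FPKM and the largest by reads (2.82), followed by HNRNPF (2.43). HNRNPF and the HNRNPH proteins bind runs of G through quasi-RRM domains. HNRNPH3, the smallest protein of the group, was at 488, 485 and 454 in the pika libraries and 25.7, 31.2 and 22.8 in the mouse libraries. No library of the species came near the other's range. The mean was 17.9-fold higher in pika, a log2 fold change of 4.12 (SE 0.10, limma-trend adjusted p = 3.94e-10). It rested on 220 mouse reads, fewer than for any other tested member, and on a recovered pika model of 627 bases against 3151 in mouse. Without division by gene length it was 2.82, still called. HNRNPF was at 703, 695 and 698 in the pika libraries and 191, 173 and 178 in the mouse libraries, a log2 fold change of 1.95 that became 2.43 without gene length. HNRNPH1 (1.36) was called higher, and HNRNPH2, the X-linked copy (0.35), was not. Reads of HNRNPH1 and HNRNPH2, which are close paralogs, may be shared between them.

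HNRNPR had the largest rise of all members by FPKM, and by reads the third largest after HNRNPH3 and HNRNPF. It encodes a protein close to SYNCRIP that is known for axonal mRNA transport, and lies in mouse at chr4:136310942-136345981. Its level was 317, 313 and 311 in the pika libraries and 15.5, 15.7 and 16.4 in the mouse libraries. The libraries of each species were nearly identical and the species far apart. The mean was 19.8-fold higher in pika, a log2 fold change of 4.22 (SE 0.05, limma-trend adjusted p = 1.04e-11), on 9657 pika and 939 mouse reads. The mouse model had 22199 bases, the longest among members, and the pika model 2736. Undivided by length the log2 fold change was 2.31, also called. HNRNPM, a splicing regulator in epithelial-mesenchymal programmes, is grouped with HNRNPR here but did not follow it. It was at 162, 161 and 146 in the pika libraries and 165, 174 and 203 in the mouse libraries. The ranges did not overlap but were separated by less than the spread within either species. Its log2 fold change of -0.20 had an adjusted p of 0.0306 by limma-trend and became 1.07 without rescaling. RefSeq lists 2 HNRNPR starts with a promoter window. The 250 bases before the first, chr4:136310692-136310941 on the plus strand, stand beside those of HNRNPA0, the member that moved furthest the other way, with the same motifs in capitals.
HNRNPR: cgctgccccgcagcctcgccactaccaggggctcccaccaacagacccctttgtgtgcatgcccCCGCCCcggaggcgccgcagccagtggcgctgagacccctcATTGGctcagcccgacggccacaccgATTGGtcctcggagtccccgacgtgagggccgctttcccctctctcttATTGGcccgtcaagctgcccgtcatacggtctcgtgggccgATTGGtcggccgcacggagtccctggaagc
This window held 4 CCAAT boxes, beginning 145, 119, 71 and 30 bases before the start, and 1 GC box at 186, with 68.8% G or C. The window before the second start, chr4:136311348-136311597, held no CCAAT box and 2 GC boxes.

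All members of the U group were called higher. HNRNPU, also known as scaffold attachment factor A, binds chromatin-associated RNA. It was at 1015, 979.9 and 988 in the pika libraries and 201, 201 and 218 in the mouse libraries, with no overlap. The log2 fold change was 2.26 (SE 0.04, limma-trend adjusted p = 6.54e-11), and 1.34 without gene length. HNRNPUL2 (1.48 with and without gene length) and HNRNPUL1 (1.18 and 1.00) encode related proteins that act in DNA end resection. HNRNPUL1 fell just short of the fold minimum without gene length and with median-of-ratios scaling.

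HNRNPL and HNRNPLL were both called higher by FPKM. HNRNPL, which binds CA repeats, was at 469.7, 445 and 438 in the pika libraries and 159, 179 and 169 in the mouse libraries (log2 fold change 1.41). Its paralog HNRNPLL, a regulator of CD45 splicing in lymphocytes, was at 95.8, 91.3 and 90.2 in the pika libraries and 31.9, 36.3 and 34.8 in the mouse libraries (1.40). Both pairs of ranges were apart. Without gene length HNRNPL stayed just under the minimum at 0.95, and HNRNPLL, whose mouse model had 11677 bases against 2026 in pika, turned to -0.06. HNRNPK, the poly-C binding member with KH domains, was at 699.8 to 739 and 366 to 383 (0.95). HNRNPC, the tetramer-forming protein that binds U tracts, was at 459 to 480.1 and 304 to 328 (0.55). Neither HNRNPK nor HNRNPC was called, though both passed the minimum without gene length, at 1.15 and 1.24.

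Among the SR proteins, the SRSF4, SRSF5 and SRSF6 group held 2 genes called higher and none called lower. SRSF4 was at 139.7, 153 and 157 in the pika libraries and 37.95, 45.5 and 50.7 in the mouse libraries, the largest SRSF rise (log2 fold change 1.73, SE 0.10). SRSF6, which with its close relatives has a second, degenerate RNA recognition motif, was at 364, 384 and 377 in the pika libraries and 153, 151 and 152 in the mouse libraries (1.30, SE 0.04). In both genes the pika libraries were well above the mouse libraries. SRSF5, a paralog of both that responds to insulin and glucose signals, was at 254, 246 and 250.3 in the pika libraries and 359.9, 336 and 360.0 in the mouse libraries. It was the SRSF gene with all pika libraries below all mouse libraries. Its log2 fold change of -0.49 (SE 0.04, limma-trend adjusted p = 1.36e-06) stayed inside the minimum, was -0.84 without gene length, and changed sign to 0.79 without rescaling. SRSF6 was higher under all 5 settings, and the 250 bases before its annotated start, chr2:162931258-162931507 on the plus strand, are given as the example of an SR gene of that kind, with the same motifs in capitals.
SRSF6: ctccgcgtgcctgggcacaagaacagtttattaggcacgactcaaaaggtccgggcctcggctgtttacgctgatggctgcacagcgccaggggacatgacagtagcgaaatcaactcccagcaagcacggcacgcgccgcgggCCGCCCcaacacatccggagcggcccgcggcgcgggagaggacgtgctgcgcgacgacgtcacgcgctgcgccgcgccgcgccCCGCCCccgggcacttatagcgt
Here 2 GC boxes began 106 and 23 bases before the start, and no CCAAT box was found.

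SRSF1, the founding SR protein, was at 272, 264 and 295 in the pika libraries and 121, 131 and 136 in the mouse libraries. Its libraries did not overlap, and the log2 fold change of 1.09 (SE 0.06) lost its call with median-of-ratios (0.92) and TMM scaling (0.98). SRSF9, its shorter relative, was at 155 to 176 and 109 to 129.7 (0.44). SRSF2, an SR protein that reads both C-rich and G-rich enhancers, was at 408, 407 and 390.4 in the pika libraries and 161, 145 and 170.3 in the mouse libraries. Those ranges lay apart, with a log2 fold change of 1.34 (SE 0.06), but the sign reversed to -0.45 without gene length, the recovered models being 416 bases in pika and 2958 in mouse. Recovered reads and lengths of short models can be too small by a shared whole factor, which would make the pika value by reads too low, for SRSF2 as for HNRNPAB and HNRNPH3. The reversal is therefore uncertain. SRSF3 and SRSF7, the smallest SR protein and its zinc knuckle relative that couple splicing to export, had log2 fold changes of 0.62 and 0.54 and were not called. SRSF7 is the SRSF gene whose models had nearly the same length, 2241 and 2279 bases. By reads its log2 fold change was 1.54. Its own length adds almost nothing to the move from 0.54. Scaling the joined reads to their own sum shifts all genes alike, and here makes up nearly all of it. SRSF10, a splicing repressor when dephosphorylated, was at 142 to 154 and 59.8 to 62.8 (1.27). SRSF11 was at 247 to 269 and 103 to 108 (1.28). Both were called under all 5 settings.

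FPKM divides reads by the length of the gene model, and the mouse model was longer for 30 of 31 members. The median ratio of mouse to pika length was 2.04 among members and 2.25 among tested genes. Where the ratio was 4 or more, all 6 members were called higher, against 41.4% of tested genes in that range. Among these were HNRNPAB, HNRNPH3 and SRSF2, whose recovered pika lengths may be too small by a whole factor. Their ratios may then be too high and their place in this range is uncertain. Between ratios of 2 and 4, 7 of 9 were higher, against 30.2%, and between 1.25 and 2, 4 of 13 were higher and 1 lower, against 22.4% higher. In the range 0.8 to 1.25, HNRNPA1 was called and SRSF7 was not, where 16.3% of tested genes were called higher. Across the 30 tested members the log2 length ratio and the log2 fold change had a Pearson r of 0.487 and a Spearman rho of 0.554. Over 9946 tested genes with both lengths the values were 0.165 and 0.196. The points share the same 6 libraries, and length enters the FPKM itself. These values also rest on the recovered lengths, including the uncertain ones.

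**Figure D2:**
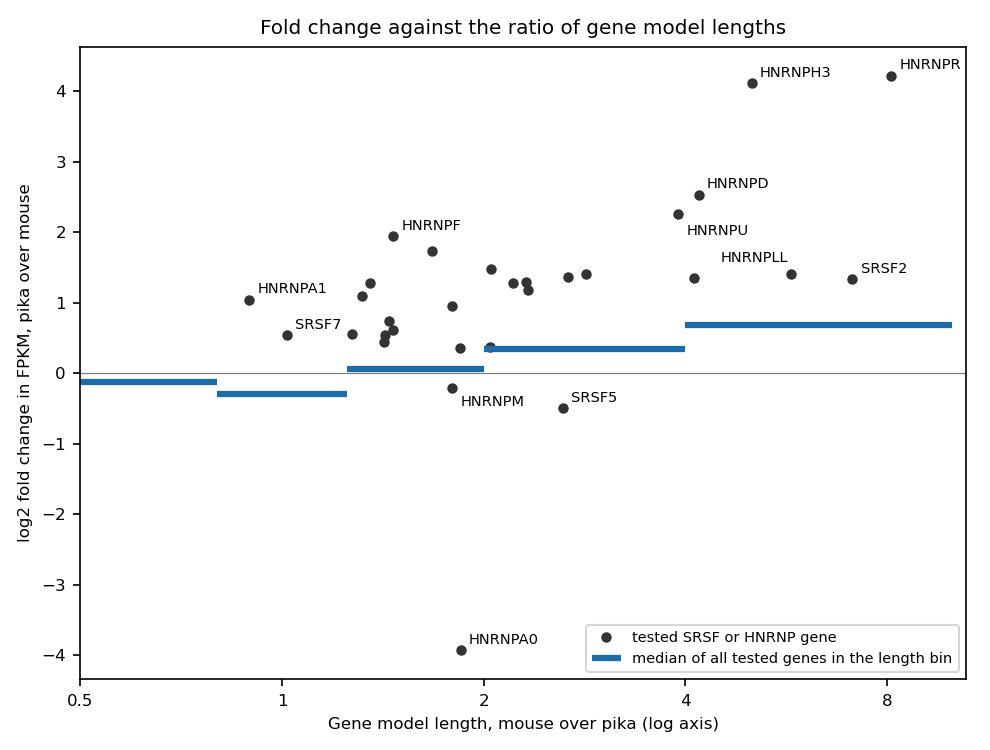
log2 fold change in FPKM of the 30 tested members against the ratio of mouse to pika model length (log axis), with the median of all tested genes per length bin as bars, the outer bins drawn only to 0.5 and 10. Members with a ratio of 4 or more all lie above the bar of their bin at 0.69, and HNRNPA0 lies far below at -3.93. The ratios of HNRNPAB, HNRNPH3 and SRSF2 may be too high, since their recovered pika lengths may be too small.

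Without division by gene length, as joined reads scaled to a sum of 1000000 per library, 18 members were again called higher and 1 lower, where 25.7% of tested genes were higher and 26.4% lower. These were not the same genes throughout, since 12 members were higher both ways, where 18.7% of tested genes were. The calls of HNRNPAB, HNRNPH1, HNRNPL, HNRNPLL, HNRNPUL1 and SRSF2 needed the division. HNRNPA3, HNRNPC, HNRNPDL, HNRNPK, SRSF3 and SRSF7 were called only without it. The reads were scaled to their own sum, so a shift common to all genes adds to the effect of each gene's length. Under all 5 settings of scale and length 10 members were higher, namely HNRNPD, HNRNPF, HNRNPH3, HNRNPR, HNRNPU, HNRNPUL2, SRSF4, SRSF6, SRSF10 and SRSF11, where 17.0% of tested genes were. Leaving the deposited FPKM unscaled moved the median of all genes to 1.29 and called 58.3% of genes higher and 10.7% lower. Median-of-ratios scaling called 25.0% higher and 26.2% lower, and TMM scaling 26.1% and 25.2%. Of the members, 5 SRSF and 10 HNRNP genes were called higher with median-of-ratios scaling, and 5 and 11 with TMM scaling. Relative to the median of all genes, the SRSF median was 0.97 higher with the shared-gene scale and 0.96 to 1.13 under the other 4 settings. The HNRNP median was 1.05 higher and 1.04 to 1.20.

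**Figure D3:**
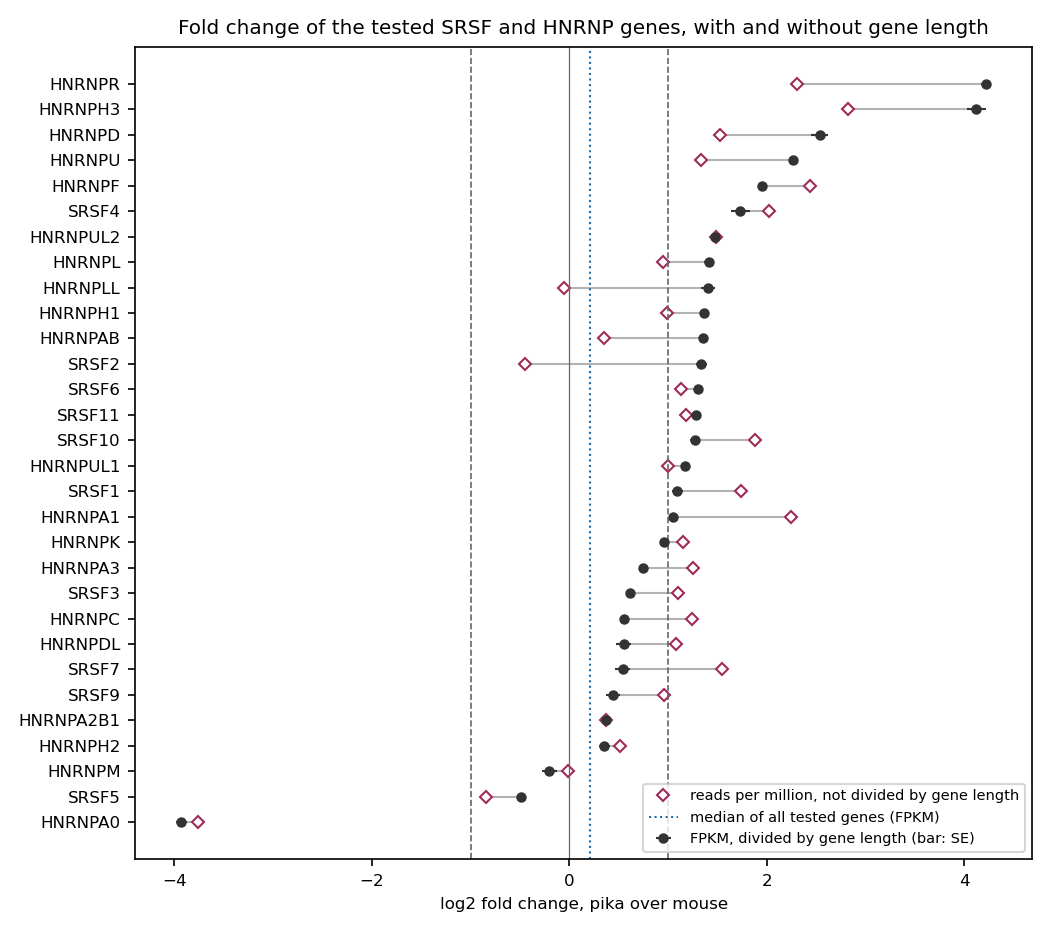
log2 fold change of each tested member by FPKM (filled circles, bars show the SE) and by reads not divided by gene length (open diamonds), with dashed lines at the fold minimum and a dotted line at the median of all tested genes, 0.21. HNRNPLL and SRSF2 cross zero when length is left out, to -0.06 and -0.45, while HNRNPA0 and HNRNPR keep their calls.

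The make-up of each family does not depend on the scale between species. Each member's share of its family's summed FPKM was therefore compared, with an exact two-sided permutation test whose smallest possible p with 3 against 3 libraries is 0.1. Shares were higher in pika without overlap for 16 members, lower without overlap for 13 and overlapping for 2. Levels of all tested genes separated the species nearly as often, 49.6% higher and 39.4% lower in pika, so the count itself sets nothing apart. The 29 shares that did not overlap are at that smallest p. SRSF5 made up 10.7%, 10.3% and 10.2% of SRSF FPKM in pika and 26.0%, 25.2% and 25.5% in mouse, the leading SRSF gene in mouse. In its place, SRSF2 (16.8% ± 0.657 against 11.5% ± 0.594, SD, n = 3) and SRSF6 (15.6% ± 0.462 against 11.1% ± 0.282) led in pika by FPKM. By reads SRSF1 led in pika, at 20.4% against 12.4% in mouse, and SRSF5 again led in mouse, at 23.5%. Pika minus mouse, the difference for SRSF5 was -15.2 percentage points by FPKM and -17.1 by reads, while the difference in SRSF2 reversed from 5.21 to -5.03, with the same uncertainty in its recovered reads.

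Within the HNRNP family, HNRNPA0 held 0.204%, 0.220% and 0.216% in pika and 7.35%, 7.71% and 7.54% in mouse. HNRNPA2B1 (5.22% against 8.97%) and HNRNPM (1.58% against 4.03%) were also smaller parts of the pika family. HNRNPU held 10.0% ± 0.125 in pika and 4.62% ± 0.123 in mouse, HNRNPF 7.05% ± 0.0154 and 4.04% ± 0.298. HNRNPH3 rose from 0.596% in mouse to 4.80% in pika and HNRNPR from 0.355% to 3.17%, with no overlap. All of these kept their direction without overlap when reads were not divided by length, as did 16 shares in all. HNRNPA1 and HNRNPAB, the most abundant members by FPKM, did not. The share of HNRNPA1 was 15.5% against 16.6% by FPKM but 14.7% against 6.89% by reads. For HNRNPAB it was 13.5% against 11.7% by FPKM and 4.04% against 7.07% by reads.

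**Figure D4:**
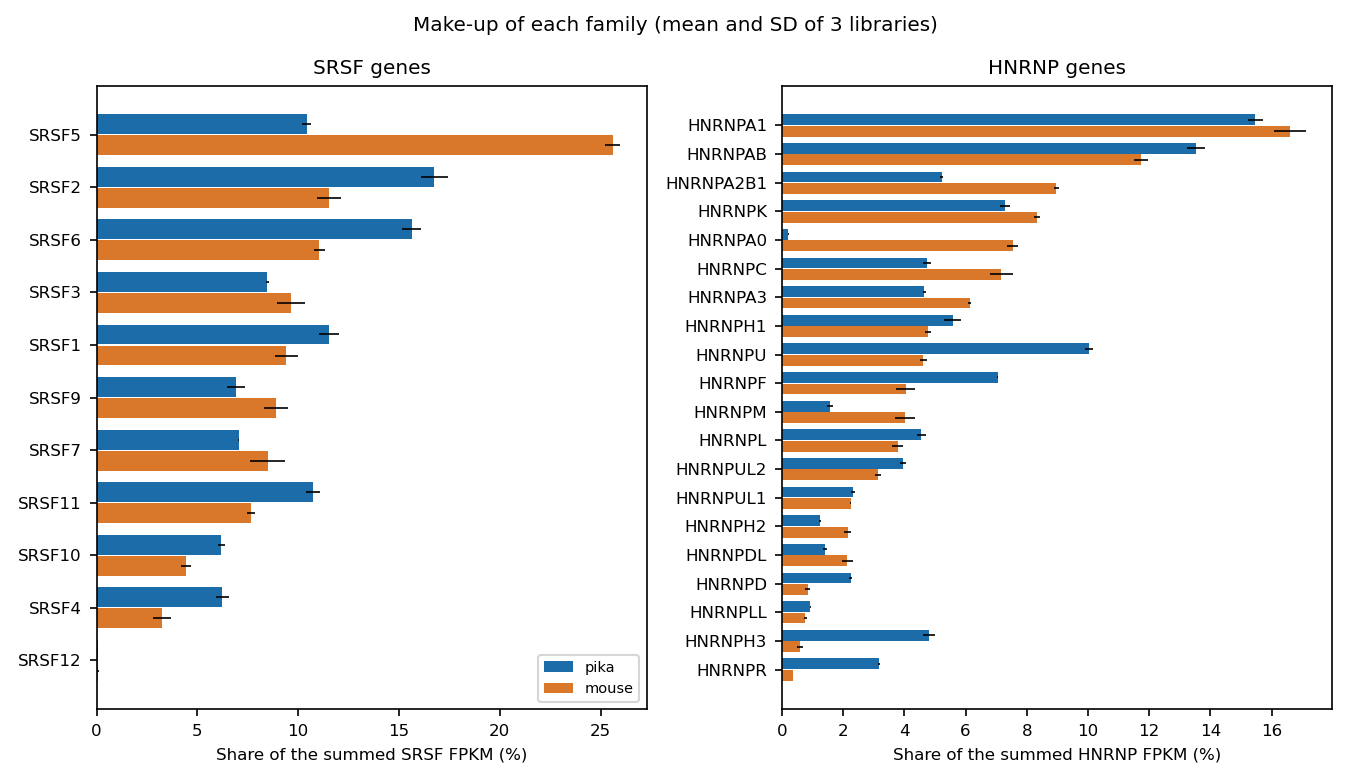
Share of each member in the summed FPKM of its family, in percent, as the mean of 3 libraries with the SD as error bar, for pika (upper bars) and mouse (lower bars). SRSF5 stands out in mouse at 25.6% against 10.4% in pika, and HNRNPA0 nearly vanishes from the pika family at 0.214%.

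Ratios between members of the same family within a library were compared next. Of 14 pairs compared, 11 did not overlap between the species, each at the smallest exact permutation p of 0.1, and 10 kept their direction without overlap when length was left out. No such share was computed for other gene pairs, and levels of single genes were apart for 49.6% (higher) and 39.4% (lower) of tested genes. By reads all 14 pairs were apart. SRSF5 over SRSF6 was -0.52, -0.64 and -0.59 on the log2 scale in pika and 1.24, 1.15 and 1.24 in mouse, so the order of the pair was swapped. HNRNPD over HNRNPDL was 0.72, 0.71 and 0.57 in pika and -1.51, -1.17 and -1.35 in mouse, also swapped by FPKM. By reads this pair was not swapped, at -0.28 in pika and -0.73 in mouse, and the gap narrowed from 2.01 to 0.45. HNRNPH1 over HNRNPF turned from 0.25 ± 0.0793 in mouse to -0.34 ± 0.0716 in pika (SD, n = 3). HNRNPUL1 over HNRNPU was lower in pika, at -2.12 against -1.03, a difference of -1.08 that was -0.34 by reads. HNRNPR over HNRNPK was -1.20 in pika and -4.55 in mouse, a gap of 3.35 that was 1.17 by reads. By contrast HNRNPL over HNRNPLL was 2.29, 2.28 and 2.28 in the pika libraries and 2.31, 2.30 and 2.28 in the mouse libraries and overlapped (exact permutation p = 0.3), but by reads that pair differed by 1.01. The other overlapping pairs, SRSF10 over SRSF2 and SRSF3 over SRSF7, differed by 2.34 and -0.45 by reads. HNRNPAB over HNRNPDL was 0.80 higher in pika by FPKM and -0.74, the other way, by reads.

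Ranked by rescaled FPKM, HNRNPA1 came first and HNRNPAB second in both species, with no overlap with the next member. HNRNPU held rank 3 in pika and rank 10 in mouse, and HNRNPK rank 4 in both. In mouse HNRNPA2B1 held rank 3, SRSF5 rank 5 and HNRNPA0 rank 6, and the libraries of SRSF5 and HNRNPA0 overlapped. HNRNPA0 held rank 30 of 31 in pika, above SRSF12. HNRNPH3 held rank 8 in pika and 29 in mouse, and HNRNPR 15 and 30. Neighbouring ranks overlapped through most of the middle of the order, among them HNRNPH3, HNRNPC, HNRNPA3 and HNRNPL in pika and HNRNPH1 through SRSF6 in mouse. These ranks depend on model length, and the order by reads differed. In pika only HNRNPA1 (37063 reads) exceeded HNRNPU (33229). In mouse only HNRNPA2B1 (7029) exceeded HNRNPU (6396), and HNRNPA1 had 3772. HNRNPH3 had 3356 pika reads, fewer than HNRNPDL (5349) at FPKM rank 27, though its reads may be recovered too small.

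Genes that work with SR and hnRNP proteins were read from the same fit. Over the 8 other splicing and RNA-handling lists, 66 of 126 tested genes were called higher and 6 lower, 52.4% and 4.76% against 28.7% and 23.5% of all tested genes, with a median of 1.10. By reads 56 were higher and 13 lower. The members thus stood beside many other splicing genes with the same direction. Among 9 SR protein kinases, which phosphorylate the tails of SR proteins, 5 were higher and none lower. By reads 4 kinases were higher and 1 lower. SRPK1, the cytoplasmic kinase, was at 119 ± 3.25 (pika) and 32.7 ± 1.73 (mouse), with a log2 fold change of 1.83, and CLK2, a nuclear kinase, differed by 1.88. SRPK1 lost its call without gene length (0.79), and CLK2 (1.65) did not. Of 14 SR-like and SR-related proteins 7 were higher and 1 lower by FPKM, but 4 higher and 3 lower by reads, the median going from 1.02 to 0.27. TRA2B, a partner of SR proteins at purine-rich enhancers, was 1.89 higher but -0.42 by reads, LUC7L3 was 2.09 higher, and SCAF11 was lower at -1.87. The reversal of TRA2B is uncertain, since its recovered reads may be too small by a shared whole factor. Of 12 export and import factors 7 were higher and none lower, among them TNPO3, the importin of SR proteins (1.52, and 0.43 by reads), and XPO1 (2.27).

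Other hnRNP proteins under their own symbols gave 6 higher and 1 lower of 15, with a median of 0.80. By reads 7 of them were higher and 2 lower. SYNCRIP, the closest relative of HNRNPR, was at 289 ± 8.7 (pika) and 56.2 ± 4.1 (mouse), with a log2 fold change of 2.35. Cold-inducible RBM3 (2.62) was higher as well, at 1094 ± 24.2 and 177 ± 4.57, with 1.54 by reads. PCBP3, a relative of HNRNPK, was at 0.174 ± 0.151 and 16.4 ± 2.22, a log2 fold change of -3.89. By FPKM the core spliceosome lists had the highest medians, and by reads these were 1.10 and 1.29, beside 1.16 for the export and import factors. Of 24 U1, U2 and Sm proteins 17 were higher and none lower (median 1.63), and by reads 14 were higher and 1 lower. Of 23 U4/U6, U5 and catalytic proteins 15 were higher and 1 lower (1.57), and by reads 13 and 1. SNRPC, a U1 protein, was at 214 ± 12.0 against 21.1 ± 1.76 (3.29, and 0.47 by reads). SF3B5 showed 2.63 by FPKM and the reverse, -1.87, by reads. That reversal is uncertain, since its recovered reads may be too small by a shared whole factor. SLU7, a second-step factor, was the exception, at 0.267 ± 0.126 in pika and 62.4 ± 2.6 in mouse (-5.65). Tissue-regulated factors gave 7 higher and 3 lower of 14 by FPKM but 3 higher and 4 lower by reads (medians 1.01 and 0.31). Lower by both measures were MBNL2 (-2.35, and -1.26 by reads), ESRP2 (-2.47 and -2.49) and RBM47 (-3.37 and -4.27). NOVA1 was higher by both (2.61 and 2.97). In nonsense-mediated decay 2 of 15 genes were higher, 13.3% against 28.7% of all tested genes, and none lower (median 0.57). Both higher genes belong to the exon junction complex, CASC3 (1.97) and RBM8A (1.95, and -0.40 by reads, with the same uncertainty as SF3B5). The other core genes of that complex in the list were not called, at -0.81, -0.33 and 0.57. By reads 4 genes of this list were higher and 1 lower.

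Promoters of the members varied in base composition, from 46.0% G or C (HNRNPA1) to 81.2% (HNRNPA0) in the 250 bases before an annotated start. The median was 68.0% over 41 member windows, 60.4% over windows of tested genes and 52.4% over all RefSeq windows. The GC box GGGCGG, searched on both strands, was present in 24 of 29 members (82.76%), in 67.27% of tested genes and in 35.36% of all genes. HNRNPD, HNRNPU, HNRNPF and HNRNPH3 were among the 24, as was the lower member HNRNPA0. CCAAT was present in 16 members (55.17%) and in 40.17% of tested genes. TATAAA was present in 3, HNRNPM, SRSF2 and SRSF3 (10.34% against 7.6%). No test was made of these shares, and a match is not a site of binding.

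In the mouse annotation 11 members overlap another gene, among them HNRNPH3 with Rufy2, HNRNPU with Cox20, HNRNPD with 4930524J08Rik and SRSF2 with Mfsd11. Whether counting used strand is not stated in the labels, so reads from the shared stretches cannot be assigned with certainty. SRSF10, at chr4:135855752-135869908, lies on the same mouse chromosome as HNRNPR. SRSF10 (1.27) and HNRNPR (4.22) were both higher in pika, by very different amounts.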

How the data were processed

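RNA-seq libraries of fibroblasts from the Tibetan pika and the C57BL/6J mouse, 3 per species, were compared. The authors deposited 1 FPKM value per gene and library, per the file headers. The submitters' processing notes list CASAVA 1.9, STAR 2.6.1a, featureCounts and edgeR 3.28.1 and, as the only build, GRCm38. The annotation of each species and the strand setting are not given in the sources used here.

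Pika rows carry gene symbols (19398 rows). Mouse Ensembl identifiers were named from a gene table, which matched 49326 of 49585. Symbols found once in each table joined 14418 genes. Each library was rescaled so that joined genes sum to 1000000. Genes with a mean deposited FPKM of at least 1 in either species were tested on log2(value + 1) by two-sided limma-trend, from limma 3.58.1 in R 4.3.3, with Benjamini-Hochberg adjustment over 10348 genes. FPKM is no count. Fold changes on this scale understate low genes. Whole reads and gene lengths were worked out from the FPKM steps with a tolerance of 0.002 reads, which gave whole reads for 99.99% of rows above 0 in at least 2 libraries. A gene's reads and length can both be too small by a shared whole factor, which leaves FPKM unchanged but lowers its level by reads. The recovered reads were 95.7% to 96.3% of each total. These reads served the comparison without gene length. Replicate libraries differed by more than sampling, with a mean chi-square per gene of 1.35 to 1.52 in pika and 1.48 to 2.93 in mouse. Scripts were checked on simulated data (Python 3.11.15, numpy 2.4.6, pandas 2.3.3, scipy 1.17.1).

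Promoter sequences are from RefSeq, mouse GRCm38.p6, with 29 of 31 members matched. Alternatives were other pseudocounts, filters, scalings, no division by gene length, no trend, a replicate block and leaving out each library. The text may name every member, up to 4 called genes with the largest fold change from each other list, and 7 clock genes. Members and lists were chosen with earlier results of these data known.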

Additional observations from a re-analysis of the deposited data

How the results depend on the processing

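Limits: species, genome and annotation differ together, the 3 libraries of a species may be technical repeats, and mouse depth limits the lowest members (220 reads for HNRNPH3). Pseudocounts of 0.1 or 5, other filters and limma without trend changed no member's call or direction. With no rescaling 6029 genes were called higher and 1106 lower, 19 HNRNP genes and 110 genes of the other splicing lists were called higher, and HNRNPM (1.07) and SRSF5 (0.79) reversed. With the filter at a mean of 5, 1584 genes were lower over all genes and 3 over the other lists. Without a filter 10 of the other lists were lower and the all-gene median was -0.0779. Without division by gene length 13 of the other lists were lower and HNRNPLL (-0.0596) and SRSF2 (-0.45) reversed. So did the share differences, in percentage points, of SRSF2 (-5.03), SRSF3 (0.72), SRSF7 (1.98), HNRNPA1 (7.83), HNRNPA3 (0.54), HNRNPAB (-3.02), HNRNPC (0.30), HNRNPH1 (-0.66), HNRNPL (-0.64) and HNRNPLL (-1.11), and the log2 ratio HNRNPAB over HNRNPDL (-0.74). Within a library the shares and ratios differ between these measures only through the recovered model lengths. Which measure lies nearer the true levels was not tested. Leaving out each library in turn gave 2940 to 2984 genes higher, 2416 to 2443 lower, 6 SRSF and 11 to 12 HNRNP genes higher. The same-numbered libraries were not paired by the labels, and their deviations correlated at -0.0091, 0.0483 and 0.0092. A replicate block gave 2972 higher and 2433 lower and changed no member's call. Of 5403 called genes 2970 were higher on the shared-gene scale, of 5298 with median-of-ratios scaling 2590.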
